A study of Mus musculus with 4 samples.

Results

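Interferon-stimulated genes are genes that cells switch on when interferon, a cytokine released on infection or on sensing of foreign nucleic acid, reaches its receptor. The set described here has 44 named members, among them the STAT and IRF factors that carry the signal. Each was found by an exact match of its name, 44 of the 42458 rows of the deposited count table. The levels come from RNA of 50 sorted cells from the spinal cord of each of 4 mice, 1 library per mouse. Per the labels, all 4 mice were of the C57BL6 genotype, had received AAV2-CAG-tdT (an adeno-associated virus with tdTomato under the ubiquitous CAG promoter) into a brain ventricle, and gave live tdTomato-positive cells enriched for cerebrospinal fluid-contacting neurons (CSF-cNs). The mice, whose age is not given in the sources used here, form a single group that all received the virus, and the uninjected preparation used to set the sort was not analysed here, so levels and the spread between mice can be given, and no effect of the virus.

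Type I interferons bind a receptor made of Ifnar1 and Ifnar2, and the kinases Jak1 and Tyk2 on it phosphorylate STAT proteins, among them Stat2. The complex ISGF3, which holds Stat2 and Irf9, binds a promoter element called the interferon-stimulated response element (ISRE). The induced proteins sense viral RNA, degrade it, block its translation or tag proteins with ISG15, and Usp18 and others limit the response. In the central nervous system, microglia, the resident macrophages, are known to respond to interferon.

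The libraries held 115479640, 95186395, 83007030 and 85626022 counts, for mouse 1 to mouse 4 in turn, as in every list of 4 values below. Levels are CPM (counts scaled to a common library size), scaled for differences in composition between libraries. A count of 0 allowed a level of up to 0.0278, 0.0321, 0.0348 and 0.0334 CPM (3 counts), which covers counting error only. The libraries did not match their label evenly: the transgene had 5, 58, 13533 and 153379 counts, and Pkd2l1, the channel that marks CSF-cNs, was at 17.9, 0.193, 664 and 690 CPM. Markers of microglia were high in each library, with 10 of 10 above 10 CPM in all 4 mice and a summed level of 58382, 61394, 37327 and 52430 CPM. Markers of oligodendrocytes summed to 14709, 236, 18726 and 453 CPM. Of other cells that respond to interferon, border macrophage markers summed to 34.8 to 83.7 CPM, monocyte markers to 0.111 to 4.74 CPM and T and NK cell markers to 0 to 0.475 CPM, and the 5 neutrophil markers had no count. In such pooled cells, fewer cells of a type and less RNA per cell cannot be told apart, and the cell type that the interferon-stimulated transcripts came from was not tested.

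Of the 44 members, 42 had the 10 counts in total that were asked of a tested gene. For each gene, edgeR's quasi-likelihood test asked whether the mean level over the 4 mice differed from 10 CPM, with Benjamini-Hochberg adjustment over all 18522 tested genes and a threshold of 0.05. The log2 levels below are relative to 10 CPM. By this test 27 of the 42 members were above 10 CPM, 64.3% of those tested, where the share over all tested genes was 36.7%. No member was called below 10 CPM by edgeR, and none at an unadjusted p under 0.05, where 0.664% of all tested genes were called below. Limma-voom and DESeq2 each called 1 member below, Ifi44. At 10 CPM or more in all 4 mice were 21 of the 42 tested members, against 36.5% of all tested genes. Without mice 1 and 2, the libraries poor in transgene, 23 of the 44 members were above 10 CPM, against 37.0% of all genes tested there. The median of all 44 members stood at 4.65, 5.52, 3.79 and 5.37 on the log2(CPM + 1) scale, a mean of 4.83 ± 0.79 (SD, n = 4), where the median of all tested genes stood at 3.14, 3.00, 3.41 and 3.25, a mean of 3.20 ± 0.17. In each mouse the median member was above the median gene, by least in mouse 3.

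**Figure D1:**
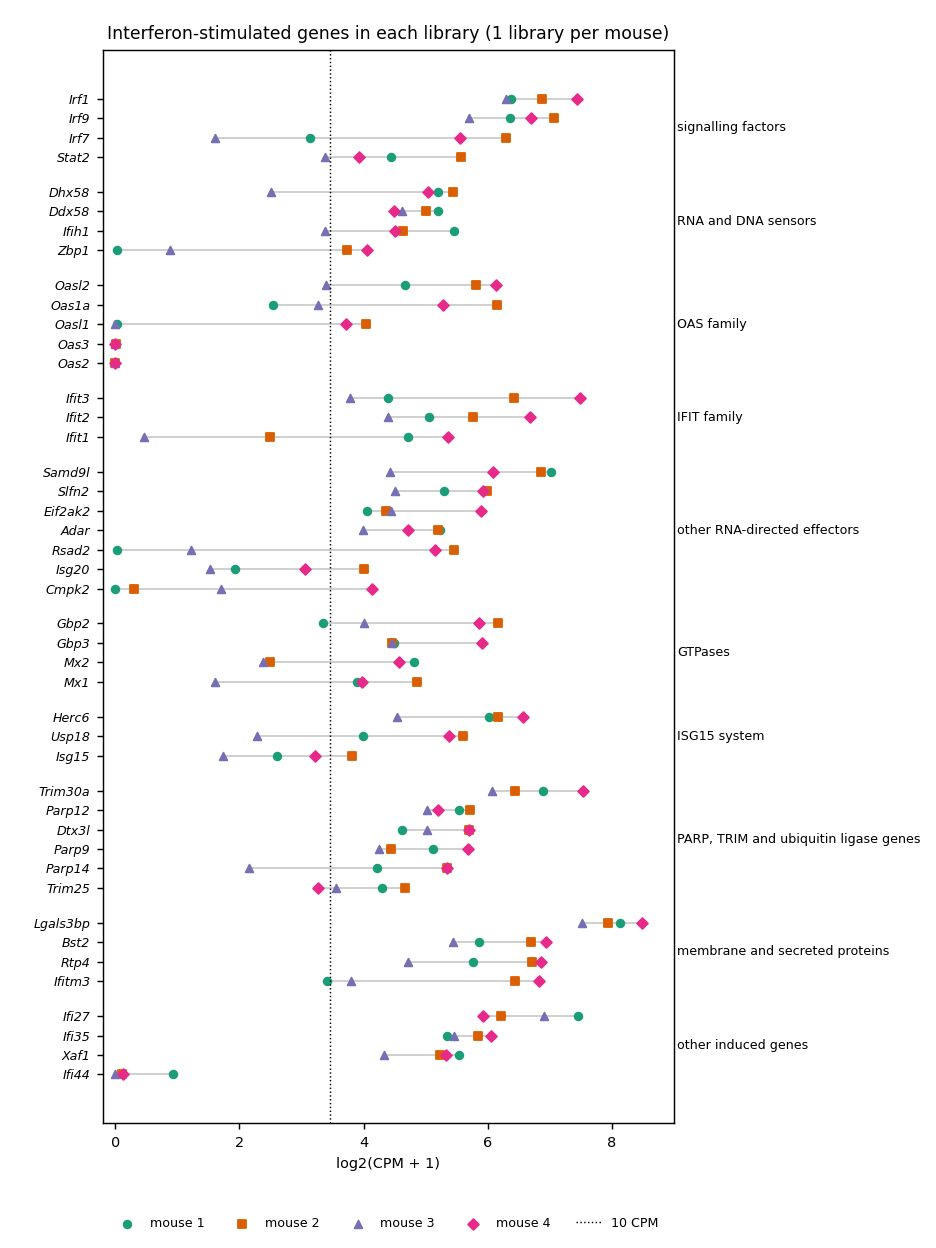
Level of each of the 44 genes as log2(CPM + 1), with 1 point per mouse (its single library), grouped by role and ordered by mean level; the dotted line is 10 CPM. For most genes the mouse 3 point lies farthest left, and Rsad2, Ifit1, Irf7, Oasl1, Zbp1 and Cmpk2 are among the genes with wide ranges.

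Promoters of the members were searched for the ISRE, spelled GAAANNGAAA, or TTTCNNTTTC on the other strand, in the 250 bases before each start site of a RefSeq table (build GRCm38.p6). The table had 43 promoters of 34 members. The element was found in 11 of these 43 promoters (25.6%), and in 2.98% of all 32851 promoters of the same length. The genes were Isg15, Ifit1, Ifit3, Rsad2, Oas1a, Oas3, Stat2, Trim30a, Bst2, Gbp2 and Gbp3. The element GAS, known from genes that type II interferon induces, spelled TTCNNNGAA and the same on both strands, was found in 6 of the 43 (14.0%) and in 7.02% of all promoters. The pieces below were chosen because they stand before genes of very different level, from Oas3 with 1 count to Trim30a with a mean of 113 CPM. Each is on the strand of its gene, 5' to 3', with matches of the ISRE in capitals, where overlapping matches run together, and 15 bases on each side where the searched window allows.

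Isg15: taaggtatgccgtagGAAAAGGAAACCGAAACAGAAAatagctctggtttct
Ifit1: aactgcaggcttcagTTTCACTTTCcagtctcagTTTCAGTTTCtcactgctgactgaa
Ifit3: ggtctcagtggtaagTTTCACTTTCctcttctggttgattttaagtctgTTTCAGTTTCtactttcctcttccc
Rsad2: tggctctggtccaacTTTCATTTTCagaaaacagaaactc
Oas1a: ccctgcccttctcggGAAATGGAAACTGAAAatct
Oas3: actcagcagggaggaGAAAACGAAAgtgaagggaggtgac
Stat2: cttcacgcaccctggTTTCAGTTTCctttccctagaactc
Trim30a: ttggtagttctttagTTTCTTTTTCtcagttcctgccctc

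These stretches lie at chr4:156200860-156200911 (Isg15, minus strand), chr19:34640770-34640828 (Ifit1, plus strand), chr19:34583358-34583431 (Ifit3, plus strand), chr12:26456548-26456587 (Rsad2, minus strand), chr5:120907526-120907560 (Oas1a, minus strand), chr5:120777710-120777749 (Oas3, minus strand), chr10:128270261-128270300 (Stat2, plus strand) and chr7:104465205-104465244 (Trim30a, minus strand). Isg15 held 3 overlapping matches, and Ifit1, Ifit3 and Oas1a held 2 each. Per kilobase of exons, Isg15 had a mean of 9.52 CPM. Of the 11 genes, those with 2 matches ranged from 6.64 (Ifit1) to 89.8 CPM (Bst2) per kilobase. Those with 1 match ranged from 0.00038 (Oas3) to 27.6 CPM (Trim30a). Whether the level goes with the number of matches was not tested. A match is a run of letters and not a measured binding site, and no binding was measured here.

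Of the signalling factors, Irf1 and Irf9 varied less between mice than Irf7, with 2.23-fold and 2.64-fold between the highest and the lowest mouse. Irf1, a factor that both interferon types induce, was at 81.6, 117, 77.4 and 172 CPM, a log2 level of 3.49 ± 0.14 (SE, edgeR adjusted p = 2.1e-06). Irf9, the DNA-binding subunit of ISGF3, was at 81.1, 134, 50.7 and 102 CPM, with a log2 level of 3.20 ± 0.16 (edgeR adjusted p = 5.0e-06). Both genes were above 50 CPM in every mouse. Stat2, its partner, was lower, at 20.7, 46.7, 9.42 and 14.2 CPM, and its call was marginal (log2 level 1.19 ± 0.37, edgeR adjusted p = 0.046). The Stat2 call was lost without mouse 1 (adjusted p = 0.10), mouse 2 (0.34) or mouse 4 (0.065), and with limma-voom (0.060) and DESeq2 (0.13). Leaving out both mice 1 and 2 also lost the Stat2 call (edgeR adjusted p = 0.66). Irf7, which is itself induced and amplifies the response, was at 7.76, 77.5, 2.05 and 45.9 CPM. Its levels in mice 2 and 4 were well above those in mice 1 and 3, with 37.8-fold between the highest and the lowest mouse, and it was not called (log2 level 1.74 ± 0.60, edgeR adjusted p = 0.068) except without mouse 3 (adjusted p = 0.017) or without the filter on low counts (0.043).

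The cytosolic RNA sensors were present in all 4 mice. Ddx58, which encodes RIG-I, was at 35.6, 31.1, 23.5 and 21.4 CPM (log2 level 1.48 ± 0.20, edgeR adjusted p = 0.0011). The highest mouse was 1.66-fold above the lowest, so Ddx58 was one of the members that varied least. Ifih1, which encodes the long-RNA sensor MDA5, was at 42.8, 23.8, 9.44 and 21.6 CPM (edgeR adjusted p = 0.020). Dhx58, which encodes LGP2, a regulator of both, was at 35.6, 42.2, 4.66 and 31.8 CPM (edgeR adjusted p = 0.023). For Dhx58 the values of mice 1, 2 and 4 lay close together and mouse 3 stood far below. The Ifih1 and Dhx58 calls were lost without mouse 1, 2 or 4, with edgeR adjusted p-values from 0.054 to 0.14, Ifih1 also with DESeq2 and Dhx58 with limma-voom (adjusted p = 0.067 each). Both calls were also lost without mice 1 and 2 together (edgeR adjusted p = 0.46 each). Zbp1, a sensor of left-handed nucleic acid, had 2 counts in mouse 1 and was at 12.4, 0.835 and 15.6 CPM in mice 2, 3 and 4, and it was not called.

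The 2'-5'-oligoadenylate synthetase (OAS) family, whose products activate RNase L, was uneven. Oasl2, an OAS-like gene, was at 24.4, 55.4, 9.47 and 68.8 CPM and was above 10 CPM (log2 level 1.98 ± 0.35, edgeR adjusted p = 0.0037). Oas1a was at 4.79, 70.3, 8.64 and 38.0 CPM. It missed the threshold narrowly (edgeR adjusted p = 0.0501) and passed it under 7 alternatives, among them leaving out mouse 1 (adjusted p = 0.018) or mouse 3 (0.043). Of the 50-base words of Oas1a, 57.6% also occur in Oas1g, which had 0, 4, 0 and 0 counts, so the split between the pair is uncertain. Oasl1, a translational repressor of Irf7, had 2 and 0 counts in mice 1 and 3 and was at 15.4 and 12.1 CPM in mice 2 and 4. Oas2 had no count in any mouse, and Oas3 had 1 count, in mouse 2, or 0.0107 CPM with an exact 95% binomial interval of 0.00027 to 0.0596 CPM.

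The IFIT genes, which encode antiviral proteins, lie in 1 cluster on chromosome 19 (GRCm38, Ifit2 at chr19:34550694-34576419, Ifit3 at chr19:34583531-34588731 and Ifit1 at chr19:34640871-34650009). Ifit3 was at 20.0, 85.3, 12.7 and 179 CPM (log2 level 2.89 ± 0.41, edgeR adjusted p = 0.0012). Ifit2 was at 32.2, 53.6, 19.9 and 102 CPM (log2 level 2.38 ± 0.28, edgeR adjusted p = 4.9e-04). Both had the order mouse 4, 2, 1, 3. Ifit1 did not share it, at 25.3, 4.64, 0.383 and 40.1 CPM, a 105-fold range, and was not called (edgeR adjusted p = 0.41). Of the 50-base words of Ifit3, 51.2% occur in its copy Ifit3b, which had 887, 462, 6 and 1577 counts, so the level of Ifit3 is uncertain.

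Among the members grouped as other RNA-directed effectors, Samd9l, a restriction factor that curbs translation, was at 128, 115, 20.4 and 66.9 CPM (log2 level 3.04 ± 0.26, edgeR adjusted p = 9.7e-05). Slfn2, a Schlafen gene tied to immune cell quiescence, was at 38.1, 62.2, 21.7 and 59.4 CPM and was also above 10 CPM (edgeR adjusted p = 2.0e-04). Eif2ak2 encodes PKR, the kinase that stops translation on double-stranded RNA, and Adar encodes the enzyme that edits such RNA and keeps it from being sensed. Eif2ak2 was at 15.6, 19.5, 20.7 and 58.1 CPM, high in mouse 4 alone, and its call was lost without that mouse (edgeR adjusted p = 0.0083 with 4 mice and 0.11 without). Adar was at 36.7, 35.5, 14.8 and 25.4 CPM (edgeR adjusted p = 0.0026), though 16.8% of its exonic bases overlap those of Chrnb2 and strand was not kept. Its call was lost without mice 1 and 2 (edgeR adjusted p = 0.11).

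Rsad2 encodes viperin and Cmpk2 a nucleotide kinase that supplies it, and the genes are neighbours on chromosome 12 (GRCm38, chr12:26442746-26456452 and chr12:26469204-26479837). Rsad2 had 2 counts in mouse 1 and was at 43.1, 1.32 and 34.5 CPM in mice 2, 3 and 4. At 4023 and 3097 counts in mice 2 and 4, its values there do not rest on few reads. Its SD of log2(CPM + 1), 2.75, was the largest of the members. Cmpk2 did not follow its neighbour: it had no count in mouse 1 and was at 0.225, 2.26 and 16.6 CPM, so mouse 2, the highest for Rsad2, was low for Cmpk2. Neither gene was called, nor was Isg20, an RNA exonuclease, at 1.87 to 15.1 CPM.

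Of the antiviral GTPases, the guanylate-binding proteins Gbp2 and Gbp3 were above 10 CPM and the Mx genes were not called. Gbp2 was at 9.18, 70.9, 15.1 and 56.8 CPM (edgeR adjusted p = 0.0077) and lost its call without mouse 2 (adjusted p = 0.068) or mouse 4 (0.058). Gbp3 was at 21.4, 20.9, 21.1 and 58.7 CPM (edgeR adjusted p = 0.0035), with 3 mice nearly equal and mouse 4 apart. Mx2 was at 27.1, 4.65, 4.22 and 22.8 CPM. Mx1 ranged from 2.03 to 28.2 CPM, and its highest mouse, mouse 2, was near the bottom for Mx2.

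The ISG15 system attaches a ubiquitin-like protein to other proteins. Isg15 itself, often taken as a hallmark of the response, was low, at 5.09, 13.1, 2.34 and 8.25 CPM, and was not called (log2 level -0.47 ± 0.63, edgeR adjusted p = 0.54). The gene is short, so that per kilobase of exons it ranked 18 of 44. Herc6, the mouse ISG15 ligase, was at 64.2, 70.6, 22.2 and 93.5 CPM and was above 10 CPM (log2 level 2.65 ± 0.23, edgeR adjusted p = 9.2e-05). Usp18, which removes ISG15 and blocks the receptor, was at 15.0, 47.7, 3.88 and 40.7 CPM. Usp18 was not called with 4 mice (edgeR adjusted p = 0.055) and was called without mouse 3 (0.0074) and without the filter on low counts (0.037).

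Of the PARP, TRIM and ubiquitin ligase genes, 4 of 6 were above 10 CPM. Trim30a, a regulator of immune signalling in mice, was at 118, 85.3, 66.2 and 184 CPM (log2 level 3.5 ± 0.16, edgeR adjusted p = 3.6e-06). Parp12, a mono-ADP-ribosyltransferase, was at 45.6, 51.6, 31.6 and 35.9 CPM, and its SD of log2(CPM + 1), 0.31, was the smallest among members with a mean of at least 10 CPM. Dtx3l, a ubiquitin ligase that works with Parp9, was at 23.7, 50.6, 31.3 and 51.2 CPM. Parp9 ranged from 18 to 50.5 CPM, and the pair share 458 exonic bases, over which reads cannot be told apart. Parp14 was at 3.47 to 39.8 CPM and was called above 10 CPM without mouse 3 (edgeR adjusted p = 0.0056, against 0.068 with 4 mice) and without the filter on low counts (0.047). Trim25, a ligase that promotes RIG-I signalling, ranged from 8.64 to 24.4 CPM and was not called.

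The membrane and secreted proteins included the members with the highest levels, and 4 of 4 were above 10 CPM. Lgals3bp, a secreted galectin-binding glycoprotein, was at 280, 245, 183 and 358 CPM (log2 level 4.74 ± 0.09, edgeR adjusted p = 8.5e-08). Bst2, or tetherin, which holds budding virus on the cell, was at 56.7, 103, 42.6 and 122 CPM (log2 level 3.02 ± 0.19, edgeR adjusted p = 1.6e-05). Rtp4, a chaperone of G protein-coupled receptors, was at 53.4, 104, 25.1 and 115 CPM (log2 level 2.90 ± 0.24, edgeR adjusted p = 8.1e-05). Ifitm3, which blocks viral entry at endosomes, was at 9.68, 85.6, 13 and 112 CPM (log2 level 2.46 ± 0.44, edgeR adjusted p = 0.0039), with mice 2 and 4 well above mice 1 and 3. Per kilobase of exons, the scale on which genes can be set side by side, the highest mean levels were those of Lgals3bp at 93.7 CPM, Bst2 at 89.8, Ifitm3 at 81.3, Ifi27 at 72.4 and Ifit3 at 42.5.

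Of the remaining induced genes, Ifi27 was at 174, 73.0, 119 and 59.5 CPM (log2 level 3.41 ± 0.17, edgeR adjusted p = 6.0e-06). Mice 1 and 3 were its highest, a pair that was highest for 1 of the 36 members with a mean of at least 10 CPM. Ifi35 was at 39.5, 56.5, 42.9 and 65.5 CPM, and Xaf1, which promotes cell death, at 45.7, 36.7, 19.0 and 39.2 CPM, and both were above 10 CPM (edgeR adjusted p = 1.7e-05 and 4.3e-04). Ifi44 was nearly silent, at 0.907, 0.0749, 0 and 0.0891 CPM.

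**Figure D2:**
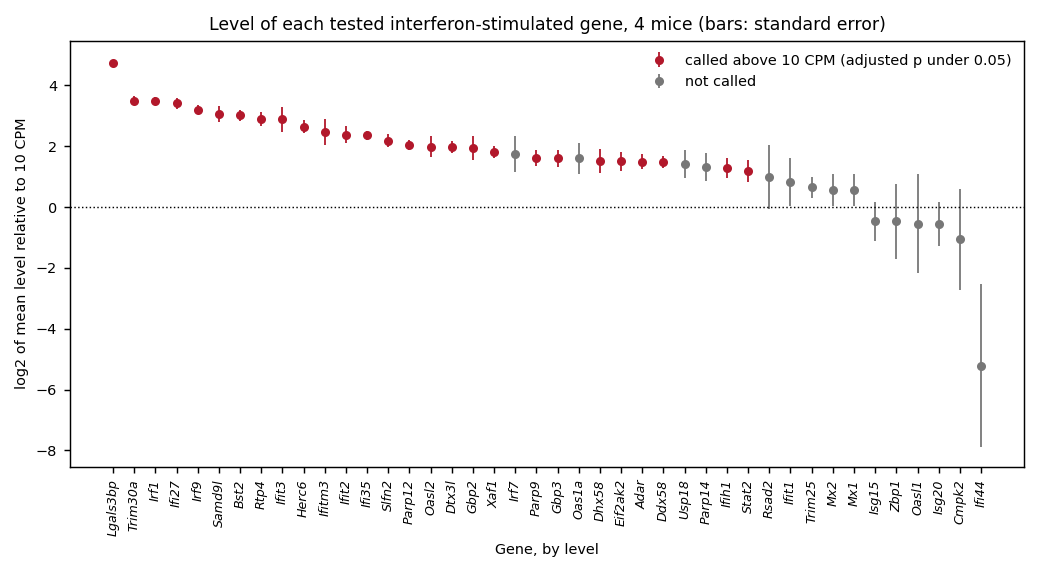
Mean level of each of the 42 tested genes over 4 mice, as log2 relative to 10 CPM (dotted line), with bars of 1 standard error; red genes were called above 10 CPM by edgeR and grey genes were not called. Lgals3bp was the highest at 4.74, and the grey genes Irf7 (SE 0.60) and Oas1a (0.51) have wider bars than the red gene Xaf1 (0.21) of like level.

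The spread between mice was wide for many members, and no test of the list was made. Over the 36 members with a mean of at least 10 CPM, the median SD of log2(CPM + 1) over the 4 mice was 0.87, where it was 0.50 over the 9125 tested genes with such a mean. An SD above 1 was reached by 14 of those members (38.9%) and by 15.7% of those genes. Some members, Rsad2 among them, reach such a mean only through the mice where they are high. Without that filter, the shares were 42.9% of the 42 tested members and 25.2% of all 18522 tested genes. The median SDs were then 0.91 and 0.58. Of the 36, more than 10-fold between the highest and lowest mouse was seen in 9, namely Irf7, Oas1a, Ifit1, Ifit3, Rsad2, Mx1, Usp18, Parp14 and Ifitm3, while 8 stayed within 2.5-fold. The 2 columns of a mouse, taken as runs of 1 library, differed by a median of 1.03-fold over the 156 member values with at least 100 counts. The largest difference was 1.52-fold, for Irf7. The receptor and kinase genes had a median SD of 0.34, the microglia markers 0.36, the sensing genes 0.45 and the brakes 0.55, over their genes at 10 CPM or more on average, none of which was above 1. Ticam1, a sensing gene with a lower mean, had an SD above 1. Other interferon-induced genes outside the members had a median SD of 0.85.

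**Figure D3:**
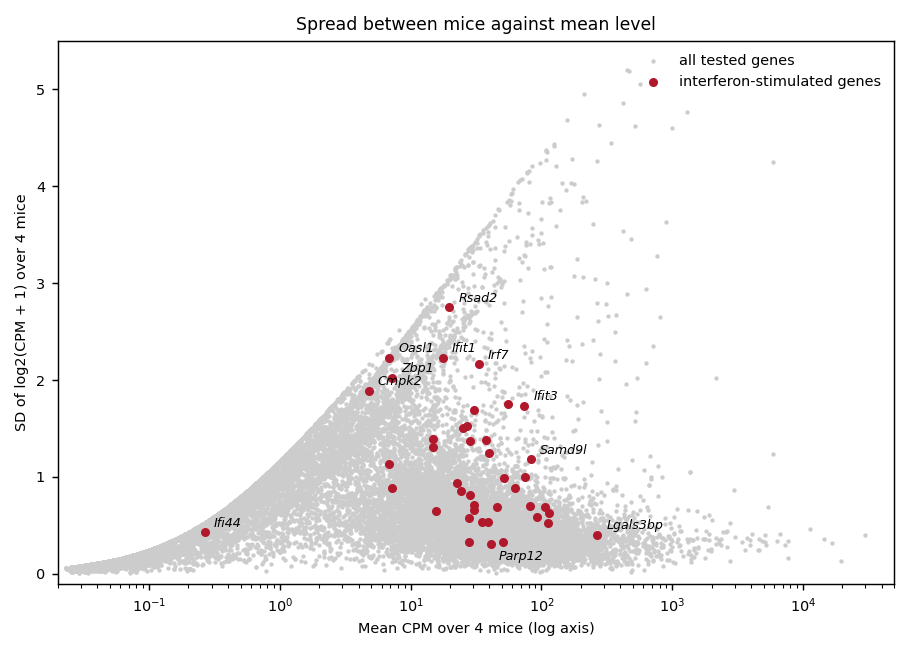
SD of log2(CPM + 1) over the 4 mice against mean CPM (log axis), for all 18522 tested genes in grey and the 42 tested interferon-stimulated genes in red. Rsad2, Ifit1 and Irf7 lie high for their level, and Lgals3bp and Parp12 lie low.

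The libraries did not share the high and low values evenly. Of the 36 members with a mean of at least 10 CPM, 25 (69.4%) were lowest in mouse 3 and none was highest there, while 28.5% of the 9125 genes were lowest and 26.8% highest in mouse 3. The highest library was mouse 4 for 16 members (44.4%, against 19.6% of genes) and mouse 2 for 13 (36.1%, against 29.4% of genes). The pair of highest libraries was mice 2 and 4 for 19 members (52.8%), against 21.8% of genes. The summed level of all members was 1706, 2291, 989 and 2671 CPM. Microglia markers moved in part with this, since 9 of 10 were lowest in mouse 3, but their sum spanned 1.65-fold and was higher in mouse 1 than in mouse 4. Levels were also divided by the microglia marker sum of the same mouse. That sum was lowest in mouse 3, so the division raises every gene there relative to the other mice. After it, 18 of the 36 members (50.0%) were lowest and 3 (8.33%) highest in mouse 3. Of all genes, 7.76% were then lowest and 59.45% highest in mouse 3, so these shares are shaped by the division itself. Mice 2 and 4 were then the highest pair for 16 members (44.4%), against 10.2% of genes. Oligodendrocyte markers were the low ones in mice 2 and 4 (236 and 453 CPM), astrocyte markers summed to 1253, 161, 1347 and 299 CPM (carried by Aldoc and S100b, while Slc1a3 was at 115, 122, 52.1 and 155 CPM), and genes of the response to dissociation summed to 14869, 9685, 4707 and 7940 CPM. The part that cell makeup or handling had in the order of the mice was not tested.

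**Figure D4:**
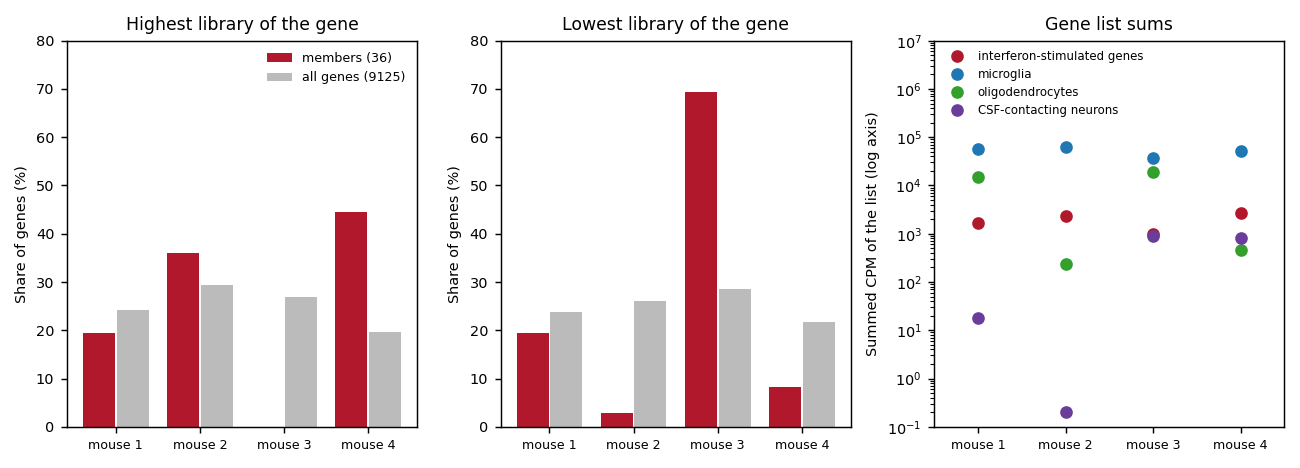
Left and middle, the share of 36 interferon-stimulated genes (red bars) and of 9125 genes of like minimum level (grey bars) whose highest or lowest library was each mouse; right, summed CPM of 4 gene lists by mouse on a log axis. No member was highest in mouse 3 and 69.4% were lowest there, while microglia marker sums stayed within 1.65-fold.

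The rest of the pathway was described with 6 lists of 108 other genes. The 20 interferon genes of the list, including Ifnb1, the Ifna genes and Ifng, had no count in any of the 4 mice. Of 9 receptors and kinases, Ifnlr1, the receptor of type III interferon, had no count. The 8 that were tested were all above 10 CPM, against 36.7% of all tested genes. The call of Tyk2 was marginal (edgeR adjusted p = 0.049). The 8 became 7 without any 1 mouse, without mice 1 and 2, with the first run only and with DESeq2. The type II receptor chain Ifngr1 was the highest of the receptors and kinases, at 1814, 1437, 1015 and 1207 CPM, and Ifnar2 was at 328, 298, 205 and 225 CPM. Ifnar1 was lower, at 44.2, 85.4, 66.9 and 41.2 CPM. Il10rb, a chain shared with interleukin receptors, was at 270, 266, 213 and 279 CPM.

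Of 14 genes of nucleic acid sensing 13 were tested, and 11 of these (84.6%) were above 10 CPM, against 36.7% of all tested genes. The highest were Tmem173, which encodes the adaptor STING, at 637, 750, 507 and 726 CPM, Irf5 at 343, 373, 194 and 299 CPM, and the RNA receptor Tlr7 at 285, 351, 192 and 238 CPM. Ikbke, a kinase of this pathway, had 1 count in all. Of 12 brakes and nucleases that clear nucleic acid, 7 (58.3%) were above 10 CPM, against 36.7% of all tested genes. Ptpn6, a phosphatase, was at 592, 577, 318 and 503 CPM, Socs3 at 330, 340, 136 and 192 CPM, and Pias1 at 145, 161, 111 and 123 CPM. Both genes of ISG15 conjugation were above 10 CPM, Uba7 at 81.4, 141, 54.9 and 125 CPM and Ube2l6 at 30.7, 74.7, 53.1 and 128 CPM. Isg15 was not called, but the level tested was not scaled by gene length. Per kilobase of exons, mean levels were 35.9 CPM for Ube2l6, 15.05 for Uba7, 9.52 for Isg15 and 6.74 for the ligase Herc6. Whether the enzymes and Isg15 differ in level was not tested.

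Of 51 other interferon-induced genes 46 were tested, and 23 of these (50.0%) were above 10 CPM, against 36.7% of all tested genes. Rows that repeat a name with a number added were not counted here. For Ifi30, not called at 120, 62, 37 and 75 counts, such a row held 10144, 11476, 4061 and 7592 counts. Ly6e was at 1483, 2171, 1283 and 2003 CPM, Lgals9 at 427, 661, 315 and 609 CPM, and Apobec3 at 125, 184, 107 and 148 CPM. Of the 31 with a mean of at least 10 CPM, 19 (61.3%) had mice 2 and 4 as the highest pair and 21 (67.7%) were lowest in mouse 3. Over the 6 lists, 51 of the 81 tested genes were above 10 CPM, against 36.7% of all tested genes, and 45 without mice 1 and 2, against 37.0%. Below 10 CPM, edgeR called no gene of the lists, also without adjustment at a p under 0.05, while 5 were called by limma-voom.

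Pairs of genes that act together were compared within each mouse, as the log2 ratio of (CPM + 1) per kilobase of exons. The test permuted the sign of each mouse's ratio, as an exact and two-sided test, which leaves 16 sign patterns. Its smallest possible p is 0.13, so none of the 7 pairs could pass the threshold. Of the ISGF3 subunits, Irf9 exceeded Stat2 in 4 of 4 mice, by 2.06, 1.64, 2.45 and 2.90 (mean 2.26 ± 0.54 SD, exact p = 0.13, adjusted over 7 pairs 0.29). Ifnar1 was below Ifnar2 in 4 of 4 mice (mean -3.0 ± 0.58 SD, exact p = 0.13, adjusted 0.29).

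The other pairs did not keep 1 direction. The ratio of Irf3, the constitutive factor, to Irf7 was 2.22, -1.05, 2.31 and -0.25, so Irf7 was the higher in mice 2 and 4 (mean 0.81 ± 1.71 SD, exact p = 0.5, adjusted 0.5). Ddx58 over Ifih1 was -0.05, 0.59, 1.45 and 0.20 (exact p = 0.25, adjusted 0.44). Adar over Eif2ak2 was 0.51, 0.17, -1.12 and -1.83 (exact p = 0.5, adjusted 0.5). Usp18 over Isg15 was -0.49, -0.10, -1.34 and 0.29 (exact p = 0.375, adjusted 0.5). The means of these last pairs, -0.57 and -0.41, became 0.10 and 1.47 without scaling by length.

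**Figure D5:**
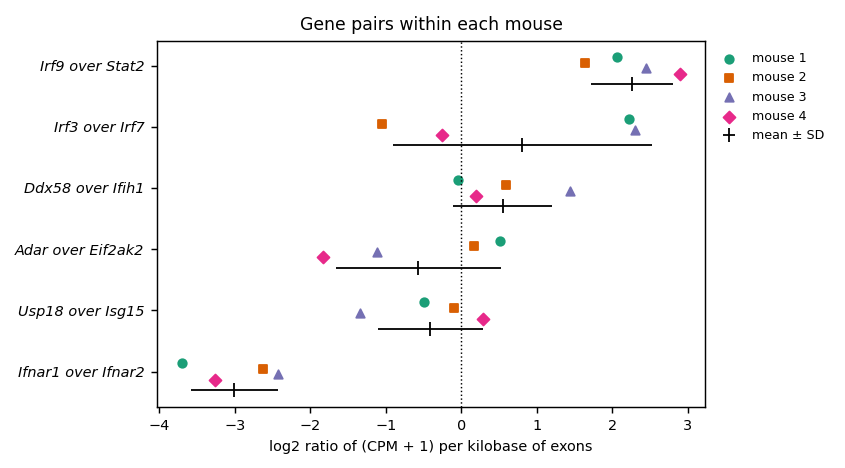
Log2 ratio of (CPM + 1) per kilobase of exons for 6 gene pairs, with 1 symbol per mouse and the mean ± SD of 4 mice in black. The ratios of Irf9 to Stat2 lie above 0 and that of Ifnar1 to Ifnar2 below 0 in 4 of 4 mice, and Irf3 over Irf7 splits into 2 mice on each side.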

How the data were processed

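RNA-seq libraries of 50 sorted cells from each of 4 mice were analysed. Per the labels' protocols, cDNA was made with SMART-Seq v4 and 11 PCR cycles and libraries with Nextera XT, so strand and molecular identifiers were not kept. The table that the authors deposited holds whole-number counts in 42458 rows, with 2 columns per mouse. Reads were processed on build mm10 with STAR, RSEM, Trim Galore, FastQC and DESeq2, per the submitters' processing notes. Their versions, settings and annotation, and any rounding, were not given in the sources used here. Columns came in pairs per mouse (Spearman correlation across genes 0.9977 to 0.9986), which were taken as runs of 1 library and summed. The authors also deposited log2 values, which equal log2 of counts divided by a size factor, plus 1, and were used only as an alternative. Depth was 115479640, 95186395, 83007030 and 85626022 counts, and intervals and floors cover counting error only. The mice are separate animals per the labels.

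CPM used TMM factors, and the level test was an intercept-only quasi-likelihood fit in edgeR 4.0.16 (R 4.3.3), with limma 3.58.1 and DESeq2 1.42.0 as alternatives. The fit takes means on the count scale, and the SE was derived from the log2 level and the F statistic (their ratio, with F under a square root). The fitting step was tested on simulated data. In that test, levels above 10 CPM were called more readily than levels below by the same fold, so the lack of calls below says little. Exonic lengths and positions come from GENCODE M21 (GRCm38), and promoters from RefSeq (GRCm38.p6), which had an entry for 34 of the 44 members. The table has 2346 rows that repeat a name with a number added, 4 of them for members. Exact intervals are at 95%. Python 3.11.15 with scipy 1.17.1 was used for the rest. A result on the pathway and 1 of the 7 gene pairs are not reported here, though the pair stays in the adjustment. The members and lists were chosen with earlier results of these data known. Values in every mouse are given for up to 3 members per role with the highest mean CPM, all factors and sensors, members with a count of 0, the 5 with the largest SD among those with a mean of at least 10 CPM, the paired genes and the top 3 of each other list. Members outside this rule that are named with a value (Isg20, Mx1, Parp9, Parp14, Trim25) were chosen after their values were seen. Normalization, filters, runs, tests, replicates, pseudocount and the tested level were varied.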

Additional observations from a re-analysis of the deposited data

Results flagged for a closer look

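Of 50 sets of 4 values examined, 3 had a mouse that stood apart from the other 3. The sets were the 42 tested members, the 7 gene pairs and the median of the members. Genes and the median were on the log2(CPM + 1) scale, and pairs were log2 ratios. A mouse stood apart if its gap to the nearest mouse, divided by the whole range, was above Dixon's 95% critical value for 4 samples. Chance alone puts about 1 in 20 such sets past that value. For Dhx58 the ratio was 0.865, with mouse 3 low at 4.66 CPM where the others were at 31.8 to 42.2 CPM. For Gbp3 it was 0.977, with mouse 4 high at 58.7 CPM where the others were at 20.9 to 21.4 CPM. For Ifi44 it was 0.868, with mouse 1 at 0.907 CPM (98 counts) and the others at 0 to 0.0891 CPM.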

How the results depend on the processing

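The 27 members above 10 CPM became 22 to 31 when 1 mouse was left out, 15 when the level tested was 20 CPM and 34 when it was 5 CPM. The cause of the fall to 15 is the higher level itself. All 27 remained called under the other normalizations, filters and single runs, 25 with limma-voom and 25 with DESeq2, which gave 1 member no adjusted p. Members below 10 CPM numbered 1 without the filter on low counts (Oas3), 1 with limma-voom and 1 with DESeq2 (Ifi44), and 0 when any mouse was left out. The 51 pathway genes above became 47 to 50 with a mouse left out, and those below became 3 without the filter and 5 with limma-voom, where the cause was not tested. The median member level stayed between 4.61 and 5.16 with a mouse left out. Of 286 values of 22 named levels, 253 kept their call, 13 became called and 20 lost it, and none changed direction. Of 63 pair values 2 changed sign, Adar over Eif2ak2 (0.10) and Usp18 over Isg15 (1.47), both without length scaling. The 19 members with mice 2 and 4 as the highest pair became 16 to 20 under 4 settings chosen after seeing the data, and 23 over all 42 tested members. Copies of Oas1a and Ifit3 and genes overlapping Adar, Parp9 and Dtx3l limit those levels. No paired analysis was possible because the mice form a single group.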
